A study of Mus musculus with 33 samples.

Results

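The 10 genes described here encode subunits of the nicotinic acetylcholine receptor: Chrna2, Chrna3, Chrna4, Chrna5, Chrna6, Chrna7, Chrnb1, Chrnb2, Chrnb3 and Chrnb4. They were chosen by symbol alone, and all 10 were found among the 23366 genes of each of the deposited count tables. RNA-Seq was performed on frontal cortex from C57BL/6 mouse offspring of about 1 month of age (PND 25 to 31), 16 labelled female and 17 labelled male, with 1 table per sex. The treatment groups breathed filtered air (6 females, 6 males), aerosol of an e-cigarette whose liquid held 13 to 16 mg of nicotine per mL (5 females, 6 males), or aerosol of one whose liquid held none (5 females, 5 males). Dams were exposed by whole-body inhalation during gestation, 3 h a day and 5 days a week. Pups were exposed with them from PND 4 to 6 through lactation. Per the methods, brains were taken 4 to 6 days after the last exposure. All groups share 1 inbred strain with no altered allele, and per the methods of the study each animal of a group came from its own litter. The females and the males were sequenced in separate runs, so sex and run cannot be told apart.

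Nicotinic receptors are ion channels built of 5 subunits that open when acetylcholine, or nicotine in its place, binds at the interface between neighbouring subunits. Chrna4 and Chrnb2 form the most common high-affinity receptor of the brain, Chrna7 forms receptors on its own, and Chrna5 joins Chrna4 and Chrnb2 as an accessory subunit that does not complete the usual binding site. Chrna2 is known in cortex from a class of deep-layer interneurons, and Chrna5 from pyramidal cells of the deepest layer. Chrna6 and Chrnb3 are known from midbrain dopamine neurons, Chrna3 and Chrnb4 from the medial habenula and autonomic ganglia, and Chrnb1 from the receptor of skeletal muscle.

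The alpha subunits are named for a pair of neighbouring cysteines in a loop that closes over the bound ligand. The coding bases around that pair show the feature that divides the family, and were read from the mm9 genome with its GENCODE annotation. Each line gives 30 coding bases 5′ to 3′, with the codons of the cysteine pair in capitals and, in Chrnb3, the aligned codons, which encode other residues.
Chrna2, chr14:66767901-66767930, plus strand, exon 6 of 7: aagaagtacgacTGCTGCgcggagatctac
Chrna3, chr9:54863649-54863678, minus strand, exon 5 of 6: atcaagtacaacTGCTGTgaggagatctac
Chrna4, chr2:180763971-180764000, minus strand, exon 5 of 7: aggaagtatgaaTGCTGTgccgagatctat
Chrna5, chr9:54852412-54852441, plus strand, exon 5 of 6: cggacggacagcTGCTGCtggtacccctgc
Chrna6, chr8:28517639-28517668, minus strand, exon 5 of 6: atcaagtacaacTGCTGTgaagagatttac
Chrna7, chr7:70251032-70251061, minus strand, exon 7 of 10: aagttctatgaaTGCTGCaaagagccatac
Chrnb3, chr8:28504363-28504392, plus strand, exon 5 of 6: agaagagaaggcTTTTACtcctatccgttt
No neighbouring cysteines stood at that place in Chrnb1, Chrnb2 or Chrnb4, and the alignment has a gap there, so no bases are given for them. Over the whole coded proteins the most similar pairs were Chrna2 with Chrna4 (69.8% identical residues), Chrna5 with Chrnb3 (67.4%), Chrnb2 with Chrnb4 (63.9%) and Chrna3 with Chrna6 (62.7%).

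Some of these genes lie side by side. Chrna5 (chr9:54828687-54855586, plus strand), Chrna3 (chr9:54859150-54874366, minus strand) and Chrnb4 (chr9:54875963-54896351, minus strand) span 67665 bases, with gaps of 3563 and 1596 bases between them. Chrnb3 (chr8:28479183-28510201, plus strand) and Chrna6 (chr8:28513686-28524416, minus strand) span 45234 bases with a gap of 3484. The remaining members stand alone: Chrna2 (chr14:66759797-66771785), Chrna4 (chr2:180753085-180778251), Chrna7 (chr7:70243578-70357455), Chrnb1 (chr11:69597538-69609445) and Chrnb2 (chr3:89557370-89568554). None of the 10 overlaps another annotated gene on either strand. No stretch of 50 bases, the length of a read, exactly matched a transcript of another protein-coding gene, except 38 of the 3437 such stretches in Chrnb4. Non-coding genes, and matches with the mismatches that the mapping allowed, were not searched.

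Library totals ran from 19150562 to 27513174 counts in females and from 17845672 to 24787955 in males. Levels are given as normalized CPM, a unit that puts all libraries of a table on the same total after TMM scaling, and intervals and limits on them cover counting error only. In 1 of the 33 libraries the sex-linked transcripts went against the label. It is the library labelled male nicotine replicate 21, and values of that group are given with and without it where they differ in a call. Of 11 markers of cortical glutamatergic neurons, all were detected in every group, and their summed level lay between 3383 and 4293 CPM in female air, 2250 and 3002 with nicotine, and 1418 and 3137 without nicotine. In males the same sum lay between 3171 and 3741 in air, 2284 and 3123 with nicotine, and 1241 and 2281 without. No exposed group overlapped its air controls in this sum. Of 7 markers of basal forebrain cholinergic neurons, the summed level lay between 20.1 and 79.6 CPM in female air against 83.5 to 195 with and 109 to 289 without nicotine, and between 34.9 and 82.0 in male air against 94.5 to 144 and 112 to 238. Of 12 markers of striatal projection neurons, 3, 1, 0 and 4 were higher than in air in the female nicotine, female no nicotine, male nicotine and male no nicotine groups, with 12, 8, 0 and 12 at an unadjusted p under 0.05 and median log2 fold changes of 0.70, 0.46, 0.36 and 0.74, where 4.29%, 12.1%, 0% and 13.6% of all genes were called. The part of these differences in the subunit results was not tested except by adding the cortical score to the model, and in whole tissue fewer cells of a type and less RNA per cell cannot be told apart.

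Chrnb2, Chrna4 and Chrna7 made up most of the family in the cortex of control animals. Per kilobase of exon, which allows levels of different genes to be compared, Chrnb2 had 13.0 ± 0.445 CPM per kb in female air (SD, n = 6) and 13.4 ± 1.02 in male air (SD, n = 6). Chrna4 followed with 9.14 ± 1.13 and 10.1 ± 0.965 CPM per kb, and Chrna7 with 2.99 ± 0.342 and 3.10 ± 0.224. The ranges of these genes did not overlap each other or those of any lower member in either sex. Together they accounted for 89.6 ± 0.965% of the summed level per kb of the 10 members in female air (SD, n = 6) and for 90.7 ± 1.09% in male air (SD, n = 6). That share was 90.0 ± 1.75%, 88.9 ± 1.01%, 89.9 ± 1.52% and 90.1 ± 0.553% in the female nicotine, female no nicotine, male nicotine and male no nicotine groups.

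**Figure D1:**
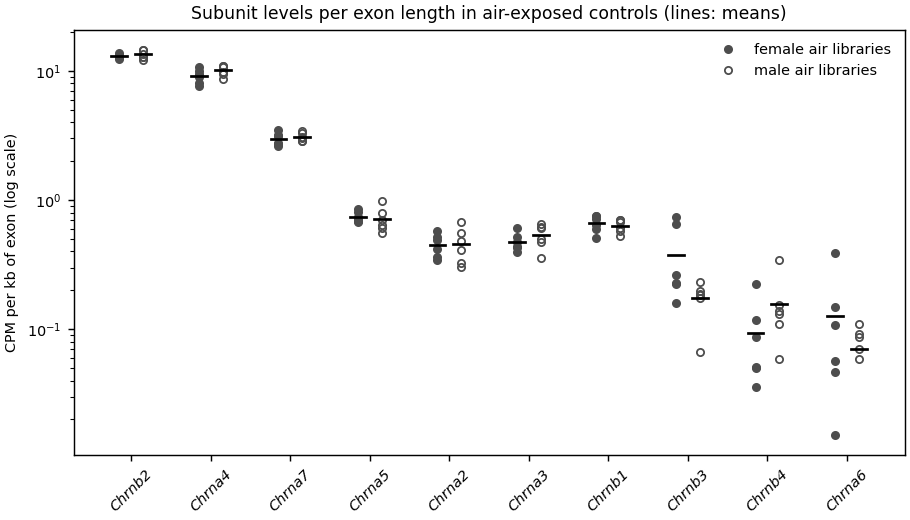
Level of each subunit in the air-exposed controls, in CPM per kb of exon on a log axis, with 1 point per library (filled, 6 female; open, 6 male) and lines at the means. Chrnb2, Chrna4 and Chrna7 lie apart from the rest at means of 13.0, 9.14 and 2.99 CPM per kb in females, and the male library with 0 counts of Chrna6 has no point on the log axis.

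The other members were expressed at a low level. Chrna5 had 0.742 ± 0.0709 CPM per kb in female air and 0.712 ± 0.153 in male air (SD, n = 6 each), Chrnb1 0.660 ± 0.0965 and 0.633 ± 0.0724, Chrna3 0.477 ± 0.0748 and 0.535 ± 0.112, and Chrna2 0.451 ± 0.0901 and 0.461 ± 0.145. Each of these 4 overlapped its neighbours among them, so their order is not fixed by these libraries. Chrna2 also overlapped Chrnb3, the next below it, in females, but not in males. Chrnb3 had 0.377 ± 0.250 CPM per kb in female air and 0.174 ± 0.0560 in male air, Chrnb4 0.0937 ± 0.0694 and 0.156 ± 0.0980, and Chrna6 0.127 ± 0.137 and 0.0697 ± 0.0386. These were the lowest members in both sexes.

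Chrna6 was too low to read in both tables. A member was taken as too low where it failed the filter on low counts (a CPM sum of 5 over the libraries of a table) or where its median raw count was under 10 in each treatment group. Chrna6 had median counts of 5.5, 8 and 7 in female air, nicotine and no nicotine and of 5, 4.5 and 6 in the male groups. It failed the filter in males and passed it narrowly in females, with a CPM sum of 5.61, where female air replicate 4 had 30 counts and the other female libraries had 1 to 15. It had no count in male air replicate 39, which allows up to 0.144 CPM there. Chrnb4 stood at the limit, with median counts of 6, 8 and 10 in the female groups and 9, 6.5 and 18 in the male groups. Counting error alone was then 31.6% of a value at its highest female median. Markers of the cells that Chrna6, Chrnb3 and Chrnb4 are known from were in part low as well. Of 7 markers of midbrain dopamine neurons, Pitx3, En1 and Foxa1 had median counts under 10 in every group, while Slc6a3 lay between 0.272 and 9.81 CPM over all libraries, Th between 2.01 and 17.1, Slc18a2 between 6.74 and 12.2 and Aldh1a1 between 40.3 and 82.7. Of 3 markers of the medial habenula in the tables, Pou4f1 had median counts under 10 in every group, and Gpr151 and Irx1 had 8 to 35 and 12 to 52 counts per library. At the other end, counting error was 2.29% for Chrnb2 and 3.11% for Chrna4 at their highest female medians.

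**Figure D2:**
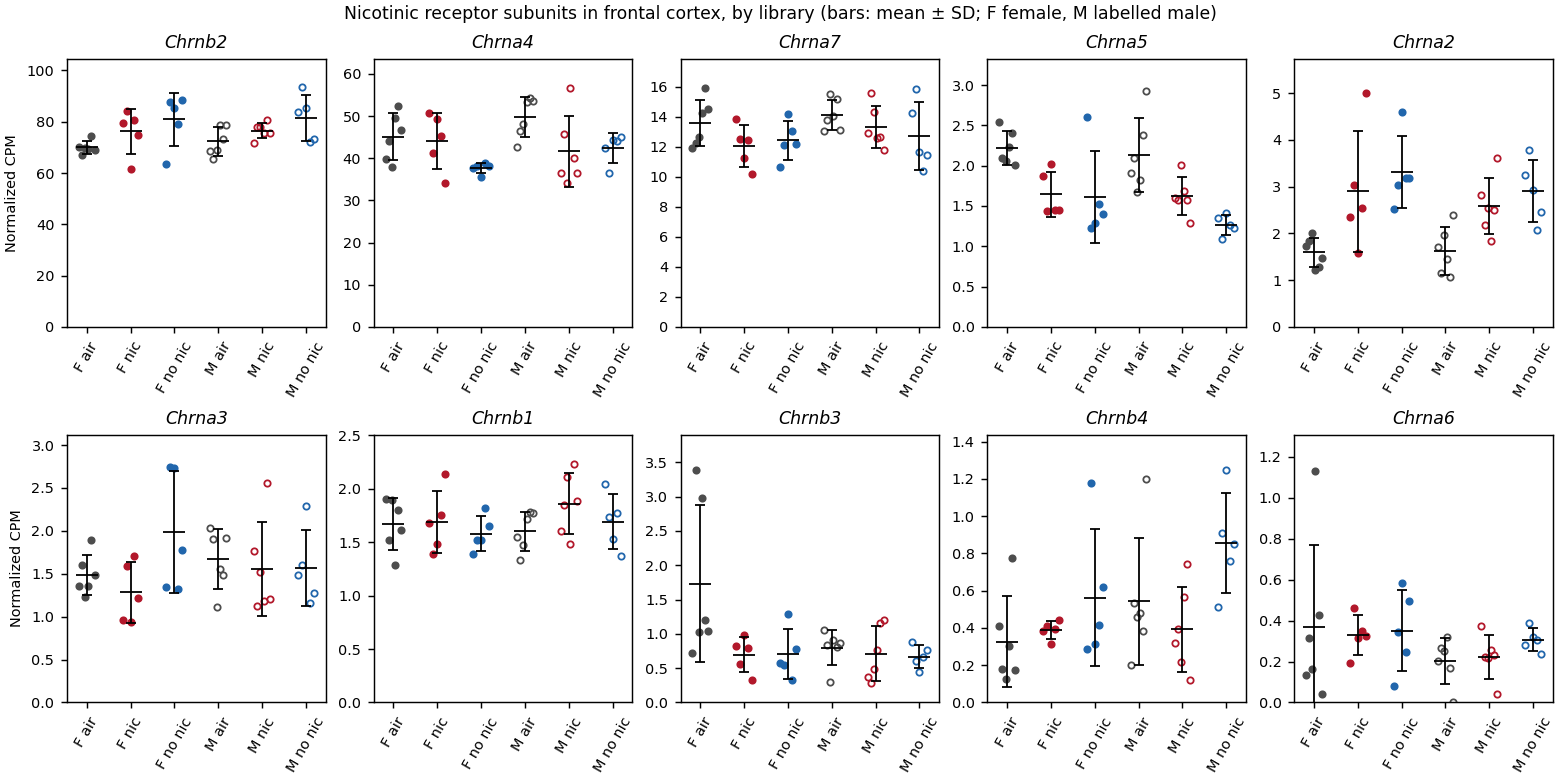
Normalized CPM of each subunit by library in the 6 groups (filled points, 16 female libraries; open points, 17 labelled male), with bars at the mean ± SD and cut at 0. Every female no nicotine library of Chrna2 lies above every female air library, and every male no nicotine library of Chrna5 lies below every male air library.

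Few subunits changed against air: Chrna2 rose in both sexes exposed without nicotine, Chrna5 fell in males exposed without nicotine, and the other members gave no call. In females exposed without nicotine 1 of the 10 members tested was called at an adjusted p below 0.01, Chrna2, which rose, while 12.1% of all 15158 genes tested were called. In males exposed without nicotine 2 of the 9 members tested were called, Chrna2, which rose, and Chrna5, which fell, while 13.6% of 15293 genes were called. With 1 of 10 and 2 of 9 members, these shares are near those of all genes. In females exposed to nicotine edgeR called 0 of 10 members, where 4.29% of all genes were called; 3 members had an unadjusted p under 0.05, beside 28.1% of all genes, and DESeq2 called 1, Chrna2, among 1319 of 15158 genes. In males exposed to nicotine edgeR called 0 of 9 members, as it called 0% of all genes. There 3 members had an unadjusted p under 0.05, beside 14.4% of all genes. DESeq2 called 0 members in that comparison, where it called 159 of 15293 genes. The median log2 fold change of the members against air was -0.10 with nicotine and -0.10 without it in females, and -0.10 and -0.09 in males, beside medians of all genes between 0.004 and 0.016. The groups stood fully apart for 1 member in each comparison of no nicotine against air, beside 10.7% of all genes in females and 12.4% in males. With nicotine against air they did so for no member, beside 6.68% of all genes in females and 2.05% in males.

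Chrna2, an agonist-binding alpha subunit of interneurons, was higher in the exposed groups of both sexes. Female air libraries had 1.21 to 2.02 CPM, with a median of 1.60. The female no nicotine libraries had 2.53, 3.04, 3.18, 3.18 and 4.60 CPM. All 5 stood above all 6 controls, and the log2 fold change was 1.06 (SE 0.242, edgeR adjusted p = 0.00485). The female nicotine libraries had 1.57, 2.35, 2.54, 3.04 and 5.01 CPM, of which 4 of 5 stood above every control. Their log2 fold change of 0.88 (SE 0.247) did not pass the threshold, with an edgeR adjusted p of 0.0275, and passed it in DESeq2 (adjusted p = 0.00678). Over the 16 fits that left out 1 female library it ran from 0.575 to 1.04, with edgeR adjusted p from 0.00620 to 0.0997. With the cortical marker score as a covariate it was 0.015, with an edgeR adjusted p of 0.991.

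The summed level of GABA interneuron markers also lay higher in exposed groups, though single markers went both ways. The summed level of 10 of them lay between 957 and 1238 CPM in female air against 1224 to 1507 with and 1261 to 1688 without nicotine, and between 1058 and 1299 in male air against 1233 to 1460 and 1365 to 1947. None was at 0. Of these 10, 4 were called higher (Gad1, Gad2, Slc32a1 and Lhx6) and 2 lower (Vip and Npy) in females without nicotine, where 12.1% of all genes were called. In males without nicotine 3 were called higher and 1 lower (13.6% of all genes), and in females with nicotine 2 higher and 1 lower (4.29%). In males with nicotine 0 were called (0%), and 5 had an unadjusted p under 0.05, beside 14.4% of all genes. The median log2 fold change of the 10 was 0.020 and 0.007 in females with and without nicotine and 0.041 and 0.009 in males. The part of these markers in the values of Chrna2 was not tested.

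In male air Chrna2 lay between 1.06 and 2.40 CPM, with a median of 1.58. The male no nicotine libraries had 2.08, 2.46, 2.94, 3.25 and 3.78 CPM, 4 of 5 above every control, for a log2 fold change of 0.85 (SE 0.212, edgeR adjusted p = 0.00687). The male nicotine libraries lay between 1.85 and 3.62 CPM, with a median of 2.53. Again 4 of 6 stood above every control, and the log2 fold change of 0.69 (SE 0.207) had an edgeR adjusted p of 0.128. Without replicate 21 the latter was 0.70, with an adjusted p of 0.197. Both calls rest on few counts, with a median of 36 in female air and 33 in male air: the adjusted p ran from 0.00126 to 0.0192 over the 16 fits that left out 1 female library and from 0.00273 to 0.0251 over the 17 that left out 1 male library, with 10 fits past the threshold in each sex. With the cortical marker score as a covariate, the log2 fold change without nicotine was -0.02 in females and 0.33 in males, and neither was called (edgeR adjusted p = 0.995 and 0.739). These were the highest adjusted p over the 25 alternatives in each sex, the lowest being 0.000312 and 0.00142.

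Chrna5, the accessory alpha subunit, was lower in the exposed groups and passed the threshold in 1 of the 4 comparisons with air. Male air libraries lay between 1.67 and 2.93 CPM, with a median of 2.0. The male no nicotine libraries had 1.09, 1.23, 1.27, 1.35 and 1.41 CPM, all 5 below all 6 controls, and the log2 fold change was -0.75 (SE 0.153, edgeR adjusted p = 0.00158). This call stood in all 17 fits that left out 1 library. With the cortical marker score as a covariate the log2 fold change was -0.71, and the adjusted p of 0.311 was the highest over 25 alternatives, the lowest being 0.000664. The male nicotine libraries lay between 1.29 and 2.004 CPM, with a median of 1.59, 4 of 6 below every control, for a log2 fold change of -0.40 (SE 0.142, edgeR adjusted p = 0.196).

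In female air Chrna5 lay between 2.01 and 2.54 CPM, with a median of 2.16. The female nicotine libraries had 1.44, 1.45, 1.46, 1.87 and 2.02 CPM, 4 of 5 below every control. The log2 fold change of -0.43 (SE 0.176) had an edgeR adjusted p of 0.116. The female no nicotine libraries had 1.23, 1.29, 1.40, 1.53 and 2.61 CPM. Of these, 4 lay below every control and replicate 1, at 2.61 CPM, above every control. The log2 fold change of -0.46 (SE 0.175, edgeR adjusted p = 0.0653) became -0.71 without replicate 1, with an adjusted p of 0.00109, the lowest over 25 alternatives, the highest being 0.913. With the cortical marker score as a covariate the female values were 0.13 with nicotine and 0.25 without, in the opposite direction. Of 7 markers of layer 6, the deepest layer, 1 was called higher and 1 lower in females without nicotine, and 1 higher in males without. With nicotine 0 were called. Of all genes, 12.1%, 13.6%, 4.29% (females with) and 0% (males with) were called. The median log2 fold changes of the 7 were 0.02 and 0.18 in females with and without nicotine and 0.07 and 0.02 in males. Their part in the values of Chrna5 was not tested.

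**Figure D3:**
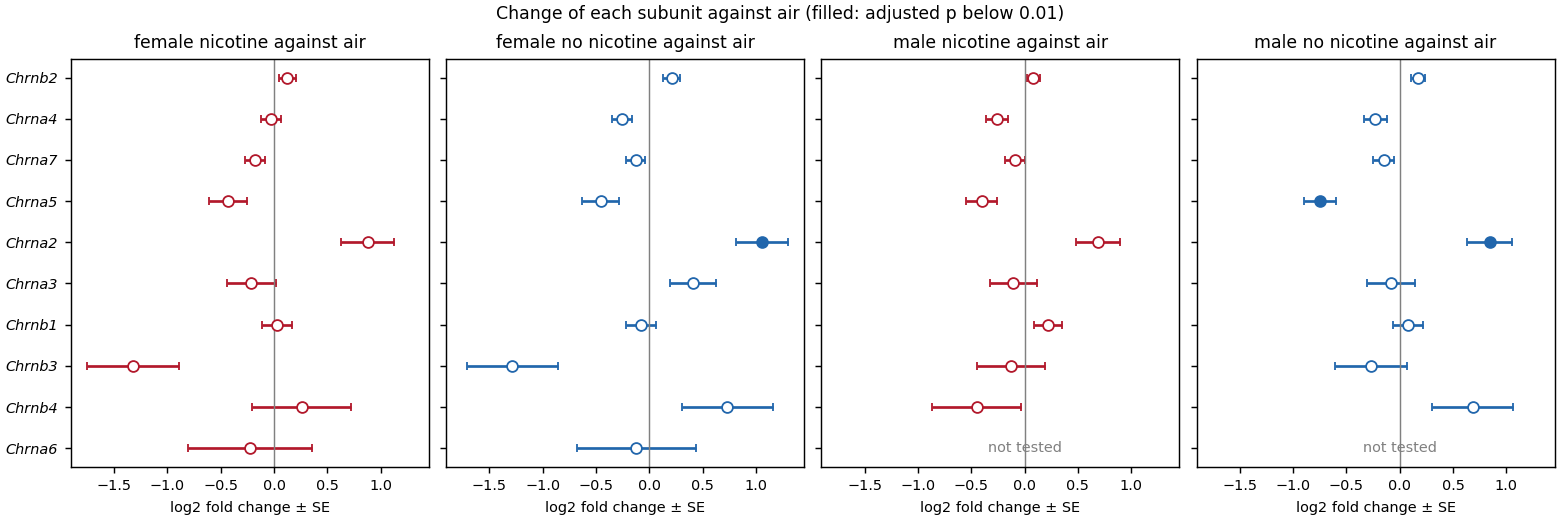
Log2 fold change ± SE of each subunit against air in the 4 comparisons, from the edgeR fit, with filled points for an adjusted p below 0.01. The filled points are Chrna2 in both no nicotine comparisons (1.06 in females, 0.85 in males) and Chrna5 in males without nicotine (-0.75), and Chrna6 was not tested in males.

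Chrnb2, the beta subunit of the common receptor, had values above air that did not pass the threshold. Female air libraries lay between 67.1 and 74.4 CPM, with a median of 69.5. The female no nicotine libraries had 63.6, 79.1, 85.4, 87.8 and 88.6 CPM, 4 of 5 above every control and replicate 1 below every control, for a log2 fold change of 0.21 (SE 0.0810, edgeR adjusted p = 0.0690). Without replicate 1 it was 0.28, with an adjusted p of 0.00546, the lowest over 25 alternatives, the highest being 0.912. The female nicotine libraries, at 61.7, 74.9, 79.7, 80.7 and 84.3 CPM, gave 0.12 (SE 0.0813, edgeR adjusted p = 0.348). In males Chrnb2 lay between 65.6 and 78.7 CPM in air, 71.5 and 80.7 with nicotine, and at 71.9, 73.3, 83.7, 85.4 and 93.4 without. These groups overlapped, and the log2 fold changes were 0.08 (edgeR adjusted p = 0.591) and 0.17 (0.0539). With the cortical score as a covariate the values without nicotine were -0.16 in females and -0.07 in males.

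Chrna4, the partner of Chrnb2, had values below air that did not pass the threshold. In females it lay between 37.99 and 52.5 CPM in air, at 34.2, 41.3, 45.3, 49.3 and 50.6 with nicotine, and at 35.7, 37.7, 38.2, 38.3 and 38.9 without. The no nicotine libraries were close to each other, 2 of 5 below every control and the others at the lower end of the control range. The log2 fold changes were -0.03 (SE 0.0932) with nicotine and -0.26 (SE 0.0936) without, with edgeR adjusted p of 0.860 and 0.0525. In males it lay between 42.6 and 54.3 CPM in air, 34.2 and 56.6 with nicotine (median 38.3), and at 36.5, 42.4, 44.0, 44.3 and 45.1 without. The male log2 fold changes of -0.26 and -0.23 had edgeR adjusted p of 0.248 and 0.130.

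Ratios within a library do not depend on its scaling. Those of Chrna4 and Chrna7 to Chrnb2 differed from air in both sexes without nicotine. With nicotine each passed in only 1 sex, and those calls were lost when single libraries were left out. The ratios were taken as log2 of the ratio of counts, each with 1 count added. They were compared by exact two-sided permutation tests over libraries, adjusted over 12 tests with a threshold of 0.05. None passed the 0.01 used for genes. Other gene pairs were not compared, and the part of tissue makeup in the ratios was not tested. The ratio of Chrna4 to Chrnb2 averaged -0.64 ± 0.163 in female air (SD, n = 6) and -1.09 ± 0.207 in females without nicotine (SD, n = 5), a difference of -0.45 (exact permutation p = 0.0130, adjusted p = 0.0260). In males it averaged -0.54 ± 0.0846 in air (SD, n = 6) and -0.94 ± 0.267 without nicotine (SD, n = 5), a difference of -0.40 in which no exposed library reached a control (exact permutation p = 0.00433, the smallest these groups can give, adjusted p = 0.0130). With nicotine the difference was -0.15 in females (exact permutation adjusted p = 0.354) and -0.36 in males (exact permutation adjusted p = 0.0390). The latter was lost without replicate 21, at a difference of -0.34 and an adjusted p of 0.0714, and also when any of 8 other libraries was left out.

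Chrna7, the subunit of homomeric receptors, also fell relative to Chrnb2. The differences in log2 ratio were -0.33 in females without nicotine (exact permutation adjusted p = 0.0130) and -0.33 in males without nicotine (0.0260). With nicotine they were -0.29 in females (0.0390) and -0.17 in males (0.0981). The female nicotine value lost its call when any of 7 libraries was left out, with adjusted p up to 0.0857. Chrna5 relative to Chrna4 was lower by -0.39 in females with nicotine (exact permutation adjusted p = 0.0130) and by -0.48 in males without nicotine (0.0130). It differed by -0.26 in females without nicotine (0.270) and -0.10 in males with nicotine (0.574). Without female no nicotine replicate 1 the former was -0.44, with an exact permutation adjusted p of 0.0190.

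**Figure D4:**
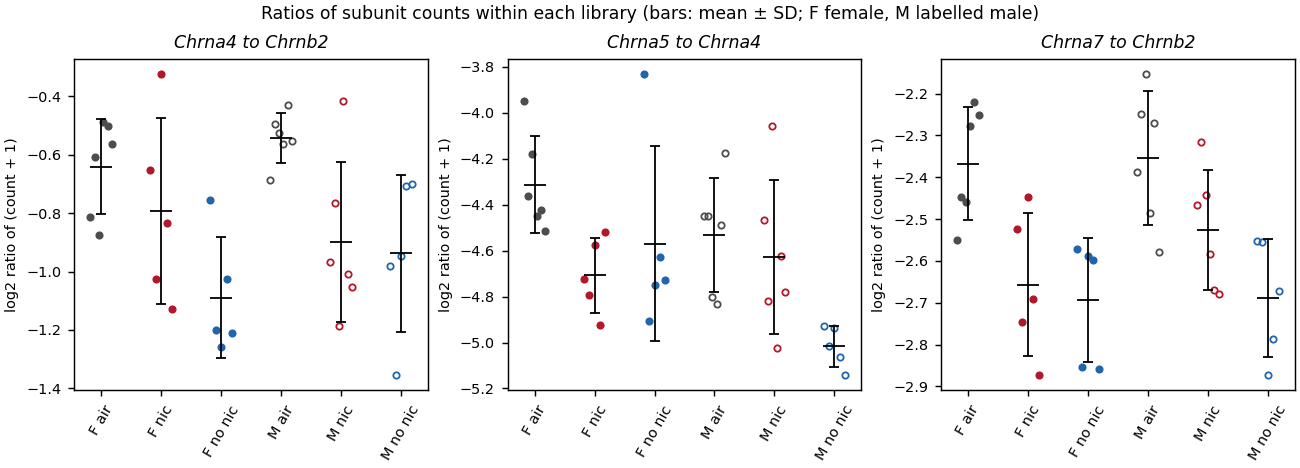
Log2 ratio of counts (1 added to each) between subunits within each library, for Chrna4 to Chrnb2, Chrna5 to Chrna4 and Chrna7 to Chrnb2, in the 6 groups (filled points, female; open points, labelled male), with bars at the mean ± SD. For Chrna4 to Chrnb2 every male no nicotine library lies below every male air library, at means of -0.94 and -0.54.

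As a gene, Chrna7 itself passed no threshold. Its levels lay between 11.9 and 15.9 CPM in female air, 10.2 and 13.8 with nicotine and 10.7 and 14.2 without, and between 13.1 and 15.5, 11.8 and 15.6, and 10.4 and 15.8 CPM in the male groups. The log2 fold changes against air ran from -0.18 (females with nicotine, SE 0.0927, edgeR adjusted p = 0.226) to -0.09 (males with nicotine, SE 0.0938, edgeR adjusted p = 0.730), and in every comparison the groups overlapped.

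Chrnb3, a beta subunit known from dopamine neurons, had the lowest fold changes of the family in females without passing the threshold. Female air libraries had 0.726, 1.03, 1.05, 1.20, 2.98 and 3.39 CPM, so that replicates 4 and 2 held most of the level of that group. The female nicotine libraries had 0.323, 0.566, 0.789, 0.816 and 0.989 CPM, and the no nicotine libraries 0.331, 0.540, 0.570, 0.784 and 1.29. Against these controls the log2 fold changes were -1.32 (SE 0.434, edgeR adjusted p = 0.0543) and -1.29 (SE 0.425, edgeR adjusted p = 0.0354). With the cortical marker score as a covariate they were -0.63 and -0.33, with adjusted p of 0.781 and 0.975. In males, Chrnb3 lay between 0.304 and 1.06 CPM in air, 0.280 and 1.21 with nicotine, and 0.443 and 0.883 without, with log2 fold changes of -0.12 and -0.27. The male change with nicotine minus the female one was 1.19 on the log2 scale (approximate 95% interval 0.0769 to 2.30, edgeR unadjusted p = 0.0443, adjusted p = 0.762).

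Chrna3, Chrnb1 and Chrnb4 gave no call. For Chrna3, the alpha subunit of ganglionic receptors, the log2 fold changes against air were -0.21 and 0.41 in females with and without nicotine and -0.10 and -0.09 in males, with edgeR adjusted p of 0.186 or more. Chrnb1, the muscle subunit, gave 0.03, -0.08, 0.22 and 0.08 in the same order, with edgeR adjusted p of 0.480 or more. Chrnb4, which pairs with Chrna3 in ganglia and habenula, gave 0.26, 0.73, -0.45 and 0.68, each with an SE between 0.379 and 0.461.

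Aerosols with and without nicotine were compared directly within each sex. Per the methods they were given in separate chambers and differed in average particulate level, so the comparison does not isolate nicotine. Of 11 markers of cortical glutamatergic neurons, 1 was called higher with nicotine in males, with a median log2 fold change of 0.51. In females 0 were called, with a median of 0.20. No member was called: edgeR called 0 of 10 in females, where 0% of all genes were called, and 0 of 9 in males, where 0.248% were called. DESeq2 called 0 members in each sex, beside 0 of 15158 genes in females and 456 of 15293 in males. Of the members tested, 2 in each sex had an unadjusted p under 0.05, beside 8.36% of all genes in females and 20.1% in males. In females they were Chrna3, at a log2 fold change of -0.62 (SE 0.234, edgeR adjusted p = 0.574), and Chrna4, at 0.23 (SE 0.0978, edgeR adjusted p = 0.587). In males they were Chrna5, at 0.35 (SE 0.158, edgeR adjusted p = 0.225), and Chrnb4, at -1.14 (SE 0.404, edgeR adjusted p = 0.119). For Chrna2 the difference between the aerosols was -0.18 in females, with an approximate 95% interval from -0.649 to 0.286, and -0.16 in males, from -0.558 to 0.239. The intervals leave room for differences in either direction.

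The change against air was compared between the sexes in a fit of all 6 groups. Of 9 members tested, edgeR called 0 in the change with nicotine and 0 in the change without, as it called 0% of the 15105 genes in both. At an unadjusted p under 0.05 there was 1 member with nicotine, Chrnb3, beside 6.47% of all genes, and there were 0 without, beside 4.91%. DESeq2 was not run on this contrast. For Chrna5 the male change without nicotine minus the female one was -0.30 on the log2 scale, with an approximate 95% interval from -0.754 to 0.157, and for Chrna2 it was -0.22, from -0.876 to 0.440. The call of Chrna5 in males alone is thus not shown to differ from females.

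Members varied together only in part. Over the 36 pairs of the 9 members readable in both tables, Pearson's r of log2 CPM, centred within each table, over the 33 libraries had a median of 0.0592 and ran from -0.724 (Chrna2 with Chrna4) to 0.622 (Chrna2 with Chrnb2). Chrna2 with Chrna5 had -0.696. Exposure groups, tissue makeup and scaling are shared by these points, so the values are descriptions. Among 15105 genes, those most like Chrna2 over the 33 libraries were Sfrp5 (r = 0.936; 0.939 in the female and 0.936 in the male table) and Smyd1 (r = 0.913). After centring within each group these were 0.860 and 0.840, so that libraries of 1 group also varied together. Chrnb2 was most like Alg2 (r = 0.940) and Tmx4 (0.923), with 0.940 and 0.936 within groups. For Chrna4 they were Igsf21 (0.872) and Dpy19l1 (0.866). For Chrna5 they were Tnpo2 (0.833) and Coro1a (0.833), which dropped to 0.563 and 0.564 within groups. Chrna7 was most like Mapk8ip2 (0.780), Chrnb3 like Cacng2 (0.781) and Cyp39a1 (0.776), and Chrna3 like Cep170 (0.749) and Ccpg1 (0.732). The lowest likenesses were those of Chrnb4, to Sccpdh (0.717) and Dlx2 (0.710), and of Chrnb1, to Vps4a (0.623) and Cmpk1 (0.619).

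The genes that make acetylcholine and fill vesicles with it moved further than any receptor subunit. All 3 genes of that list, Chat (the enzyme that makes acetylcholine), Slc18a3 (its vesicular transporter) and Slc5a7 (choline uptake), rose in females with nicotine, in females without and in males without. Of all genes, 4.29%, 12.1% and 13.6% were called in these comparisons. In males with nicotine edgeR called 0 of 3, as it called 0% of all genes. All 3 had an unadjusted p under 0.05 there, beside 14.4% of all genes. Chat was among the genes the study singled out in these samples, so its direction is not independent evidence. Its level was 3.99 ± 1.55 CPM in female air (SD, n = 6), 13.3 ± 3.97 with nicotine (SD, n = 5) and 17.8 ± 5.52 without (SD, n = 5), with log2 fold changes of 1.73 (edgeR adjusted p = 0.00162) and 2.15 (0.000802). In males it was 6.22 ± 1.84 CPM in air (SD, n = 6) and 17.8 ± 5.24 without nicotine (SD, n = 5), a log2 fold change of 1.53 (edgeR adjusted p = 7.45e-05). Chat, Slc18a3 and Slc5a7 are also 3 of the 7 basal forebrain markers given above. All 7 of those rose in the same 3 comparisons.

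Of 4 genes that break acetylcholine down or anchor the enzyme, 2 rose in the same 3 comparisons: Ache, the acetylcholinesterase, and Prima1, its membrane anchor. Of all genes, 4.29%, 12.1% and 13.6% were called in these comparisons. Ache had log2 fold changes of 0.80 and 1.05 in females with and without nicotine and of 0.91 in males without (edgeR adjusted p = 0.00720, 0.000934 and 2.63e-05). Prima1 had 1.00, 0.98 and 1.06 (edgeR adjusted p = 0.00202, 0.00114 and 9.03e-05).

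Of 6 genes known from receptor assembly and trafficking, 2 fell in each female comparison with air and 1 in males without nicotine, and none rose. Of all genes, 4.29%, 12.1% and 13.6% were called in these comparisons, so that 1 of 6 in males is near the share of all genes. Ywhah, a 14-3-3 protein that binds Chrna4, fell in all 3, with log2 fold changes of -0.43, -0.47 and -0.38 (edgeR adjusted p = 0.00356, 0.00116 and 0.00790). Vsnl1, a calcium sensor that binds Chrna4, fell by 0.33 and 0.30 on the log2 scale in females (edgeR adjusted p = 0.00237 and 0.00192). Of 9 Ly6 proteins related to the receptor, 7 could be tested. Without nicotine 1 of these was called in females and 2 in males, beside 12.1% and 13.6% of all genes. Ly6e fell without nicotine in both sexes, by 0.46 and 0.38 on the log2 scale (edgeR adjusted p = 0.00352 in each), and Lypd6 in males without nicotine by 0.25 (edgeR adjusted p = 0.00193). Slurp1 and Psca had median counts under 10 in every group.

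Of the 6 remaining nicotinic subunits, 2 could be tested, Chrna1 and Chrna10, and edgeR called 0 of these in each comparison, with 0 at an unadjusted p under 0.05. Chrna1, the muscle alpha subunit, had the smallest p of them, at a log2 fold change of -0.51 in females without nicotine (SE 0.270, edgeR adjusted p = 0.182). Chrnd had 0 counts in every library. Of 4 genes beside Chrna5, Chrna3 and Chrnb4 on chromosome 9 (Ireb2, Agphd1, Psma4 and Adamts7), edgeR called 0 in each comparison. Psma4 had an unadjusted p under 0.05 in females without nicotine, at 0.13 (SE 0.0558, edgeR adjusted p = 0.110), and in the male change without nicotine minus the female one, at -0.18 (SE 0.0804, edgeR adjusted p = 0.945).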

How the data were processed

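RNA-Seq counts per gene were used from 33 frontal cortex libraries, 16 labelled female and 17 labelled male. The authors deposited raw counts, 1 table per sex, made from single reads of 50 bases that were mapped to mm9 transcripts with Bowtie (2 mismatches allowed), freed of duplicates with SAMtools and counted with HTSeq. The strand setting of the counting is not given in the sources used here. Removal of duplicates from single reads lowers high counts more than low ones. The deposited normalized tables hold the same counts divided by 1 factor per library and were not used, nor was 1 of the 34 columns, which matched no labelled sample.

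Genes with a CPM sum of at least 5 entered edgeR 4.0.16 (TMM scaling, quasi-likelihood F test, the 3 groups of a sex in 1 fit), and p was adjusted by Benjamini-Hochberg over all genes tested, with the threshold of 0.01 that the study used. Sexes were compared in a fit of all 6 groups. The interval of a difference is the estimate plus and minus 1.96 SE. Ratios of counts were compared by exact permutation tests. Scripts were tested on simulated data. Replicates are separate offspring per the methods. Alternatives were DESeq2 1.42.0, other scalings, filters and thresholds, fits of only the compared groups, a replicate block, the mean log2 CPM of the cortical markers as a covariate, and leaving out each library. The members, lists and tests were chosen with earlier results of these data known. Named genes are the 10 members, pathway genes called in at least 2 of 6 comparisons (otherwise the smallest p of a list), and the 2 genes most like each readable member, of which 1 is not reported here. Lypd6 was named after its values were seen. R 4.3.3, Python 3.11.15, Biopython 1.88 and scipy 1.17.1 were used. Sequences and positions come from the mm9 genome with GENCODE vM1. Protein sequences were not printed.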

Additional observations from a re-analysis of the deposited data

Results flagged for a closer look

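Among 60 sets of libraries (10 subunits in 6 groups), 4 had 1 library that stood far from the others by Dixon's test, and chance alone marks about 1 set in 20. Chrna5 reached 2.61 CPM (64 counts) in female no nicotine replicate 1, where the other 4 libraries lay between 1.23 and 1.53 CPM. The same library was also the lowest of its group for Chrnb2. Chrna6 reached 1.13 CPM (30 counts) in female air replicate 4, where the others lay between 0.0436 and 0.430 CPM. In that library Slc6a3, the dopamine transporter of midbrain neurons, had 9.81 CPM (260 counts), against 0.272 to 1.12 CPM in the other female air libraries. Slc6a3 was named after its values were seen, and of the other 6 dopamine markers, En1 (10 counts), Foxa1 (1 count), Th (6.95 CPM) and Slc18a2 (9.63 CPM) were also highest there, the last 2 close to the next libraries at 6.06 and 9.58 CPM, while Aldh1a1 and Pitx3 were higher in another library. Chrnb3 was at 2.98 CPM there, and at 3.39 CPM in female air replicate 2, where Slc6a3 was at 0.536 CPM. Chrnb3 dropped to 0.304 CPM (6 counts) in male air replicate 33, where the others lay between 0.807 and 1.06 CPM. Chrnb4 reached 1.20 CPM (25 counts) in male air replicate 39, where the others lay between 0.203 and 0.533 CPM. The causes were not tested.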

How the results depend on the processing

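The number of subunits called against air depended on the processing. In females with nicotine it was 0, and 1 with DESeq2 or with a threshold of 0.05 (Chrna2), and 0 to 1 when 1 library was left out (1 without nicotine replicate 3). In females without nicotine it was 1, 2 with a threshold of 0.05 (Chrna2 and Chrnb3), 0 when the cortical marker score was added as a covariate, and 0 to 3 when 1 library was left out: 0 without air replicate 4, 5 or 6 or no nicotine replicate 2, 3 or 5, and 3 without no nicotine replicate 1 (Chrna2, Chrna5 and Chrnb2). In males without nicotine it was 2, 1 in a fit of only the compared groups (Chrna5), 0 with the covariate, and 1 to 2 when 1 library was left out, with Chrna2 lost without air replicate 30, 31, 37 or 38 or no nicotine replicate 2, 3 or 4. The covariate turned 6 log2 fold changes: Chrna5 in females to 0.13 with and 0.25 without nicotine, and, without nicotine, Chrna2 in females to -0.017, Chrna4 in females to 0.094, Chrnb2 in females to -0.16 and Chrnb2 in males to -0.074. With it edgeR called 0 of all genes in both female comparisons with air, 0 for males given nicotine and 15 for males given none, and since every exposed group lies apart from air in the summed level of these markers, exposure and score cannot be told apart by that fit. The ratio of Chrna7 to Chrnb2 in females with nicotine ran from -0.34 to -0.23 when 1 library was left out, and that of Chrna4 to Chrnb2 in males with nicotine from -0.45 to -0.30, and in each some of these lost the call. With a median count of 20 as the minimum, or with the stricter filter, 2 members were too low in females (Chrna6 and Chrnb4) and 3 in males (these and Chrnb3). DESeq2's size factors, upper quartile scaling, no filter and a pseudocount of 0.5 in the ratios changed no call of the members. In females the replicate block gave 0 members with nicotine, 1 without and 0 between the aerosols, as the fit without it did. It lowered the calls over all genes from 651 to 136 and from 1829 to 736. Samples with the same number share only that number: over 14 such pairs the correlation of deviations from the group means ran from -0.273 to 0.266, and over 71 other pairs from -0.404 to 0.477.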
